A study of Mus musculus with 12 samples.

Results

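The genes described here encode channel proteins: the connexins Gja1 (Cx43), Gjb6 (Cx30), Gjb2 (Cx26), Gja4 (Cx37) and Gjc1 (Cx45), and the pannexin Panx1. They were taken by symbol from the table of raw counts per gene, in which all 6 were found among 15774 genes, and all 6 were among the 15635 genes tested. RNA was sequenced from astrocytes that had been sorted by flow cytometry from the cerebral cortex of mice. The comparisons ask how the level of each channel gene differed at days 1, 3, 7, 21 and 60 after a focal stroke from its level after sham surgery, and from one time to the next. The stroke mice had a permanent ligation of the distal middle cerebral artery together with 7 min of occlusion of both common carotid arteries. In sham surgery only the surface of the skull was lesioned. Mice of all 6 groups were wild-type C57BL/6J, with 2 libraries in each group and 12 in all. The marker used for the sort, the age and sex of the mice, the time of the sham collection and whether a library came from 1 animal or a pool are not stated. Since no source says that replicates were separate animals, the p-values measure the spread between these libraries, which may be technical.

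Connexins assemble into hemichannels, and hemichannels of adjacent cells dock to form gap junctions, which pass ions, metabolites and second messengers from cell to cell. Astrocytes of the mature cortex are joined into networks mainly by Cx43 and Cx30, while Cx26 has been described in astrocytes and is prominent in cells of the leptomeninges. Cx37 is best known from arterial endothelium and Cx45 from vascular smooth muscle and some neurons. Pannexin 1 forms channels in a single membrane that release ATP, and caspase cleavage opens it.

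Gja1 lies on the plus strand of chromosome 10 from 56377330 to 56402513 in mm10. Gjb6 (57123303 to 57133611) and Gjb2 (57098600 to 57104702) lie on the minus strand of chromosome 14, separated by 18600 bases. Gja4 lies on the minus strand of chromosome 4 (127311421 to 127314039), Gjc1 on that of chromosome 11 (102799579 to 102819700) and Panx1 on that of chromosome 9 (15002128 to 15045478). No exon of these 6 genes overlaps an exon of another gene in the GENCODE annotation of that build.

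The 250 bases before the annotated start are shown for the 3 genes on which the time courses turn, 5′ to 3′ on the strand of the gene. Capitals mark a match to the AP-1 motif (TGANTCA) or to the GC box (GGGCGG), on either strand. They come from RefSeq (GRCm38.p6): Gja1 from chr10:56377050-56377299, Gjb6 from chr14:57133612-57133861 and Gjb2 from chr14:57104703-57104952. The starts are those of RefSeq. The Gja1 stretch therefore ends upstream of the GENCODE start at 56377330 given above and does not adjoin it, while the Gjb6 and Gjb2 stretches do adjoin theirs.
Gja1: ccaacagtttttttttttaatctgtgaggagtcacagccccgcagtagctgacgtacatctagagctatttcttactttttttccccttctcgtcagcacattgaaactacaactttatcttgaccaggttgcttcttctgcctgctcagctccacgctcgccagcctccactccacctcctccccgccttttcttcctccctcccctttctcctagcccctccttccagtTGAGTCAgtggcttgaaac
Gjb6: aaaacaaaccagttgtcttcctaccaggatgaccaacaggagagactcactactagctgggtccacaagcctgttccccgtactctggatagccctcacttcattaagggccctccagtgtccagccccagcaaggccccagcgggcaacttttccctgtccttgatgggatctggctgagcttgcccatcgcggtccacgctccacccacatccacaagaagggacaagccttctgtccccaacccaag
Gjb2: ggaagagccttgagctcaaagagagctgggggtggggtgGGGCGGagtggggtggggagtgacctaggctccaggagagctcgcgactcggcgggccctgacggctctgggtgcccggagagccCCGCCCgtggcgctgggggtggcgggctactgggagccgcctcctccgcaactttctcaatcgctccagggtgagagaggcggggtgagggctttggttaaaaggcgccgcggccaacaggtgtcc
The Gja1 stretch holds the AP-1 letters, beginning 19 bases before the RefSeq start, as do 6.75% of 32851 promoters of the same length. The Gjb2 stretch holds the GC box letters at 211 and 126 bases before the start, as 32.7% of promoters do in at least 1 place, and the 2 matches do not overlap. The Gjb6 stretch, next to Gjb2 on the chromosome, holds neither. STAT letters (TTCNNNGAA, in 7.02% of promoters), the hypoxia response core (ACGTG, 16.6%) and a TATA box (TATAAA, 12.4%) were searched on both strands and are in none of the 3 stretches. The base composition differed too, with 69.2% G or C for Gjb2, 56.8% for Gjb6 and 50.0% for Gja1. Such matches describe the letters only.

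The libraries labelled replicate 1 held 13006008 to 16575045 counts and those labelled replicate 2 held 97056596 to 156128922, so that replicate 2 was 6.30 to 9.63 times as deep. Levels are CPM, that is, counts scaled to a common library total with TMM factors. The label of the cells was checked against 9 astrocyte markers without the connexins (Aldh1l1, Slc1a3, Slc1a2, Aqp4, Gfap, S100b, Aldoc, Sox9 and Fgfr3). All 9 were at or above 1 CPM on average in every group, and none was at 0, but their summed share of counts was 0.664% to 0.843% in sham, 0.346% to 1.28% on day 1, 0.366% to 0.843% on day 3, 0.0531% to 0.0968% on day 7, 0.204% to 0.264% on day 21 and 0.208% to 0.270% on day 60. The share in 10 fibroblast and meningeal genes was higher at every time after stroke, at 0.0081% in both sham libraries, 0.204% to 0.268% on day 1, 0.669% to 2.37% on day 3, 8.15% to 19.8% on day 7, 2.88% to 4.60% on day 21 and 1.84% to 2.48% on day 60. The day 7 libraries therefore go most against their label: Col1a1, a fibrillar collagen gene, averaged 56118 CPM there and 6.18 CPM in sham. Both libraries of days 3, 21 and 60 also held more counts in the fibroblast and meningeal genes than in the astrocyte markers. Those of sham and day 1 held fewer. In sham the 10 oligodendrocyte markers held 0.929% to 1.08%, more than the astrocyte list. Shares of different lists depend on the genes chosen and do not count cells. The 10 endothelial markers held 0.579% to 0.884% of counts at day 1 and 0.138% to 0.187% in sham, and the 10 neuronal markers held 0.0088% to 0.0177% on day 7 and 0.614% to 0.656% in sham. No marker of the lists for endothelium, pericytes, microglia, neurons, oligodendrocytes or ependyma was at 0 in both libraries of any group. In such bulk samples, fewer cells of a type and less RNA per cell cannot be told apart, and the part of these shares in any result on a channel gene was not tested.

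**Figure D1:**
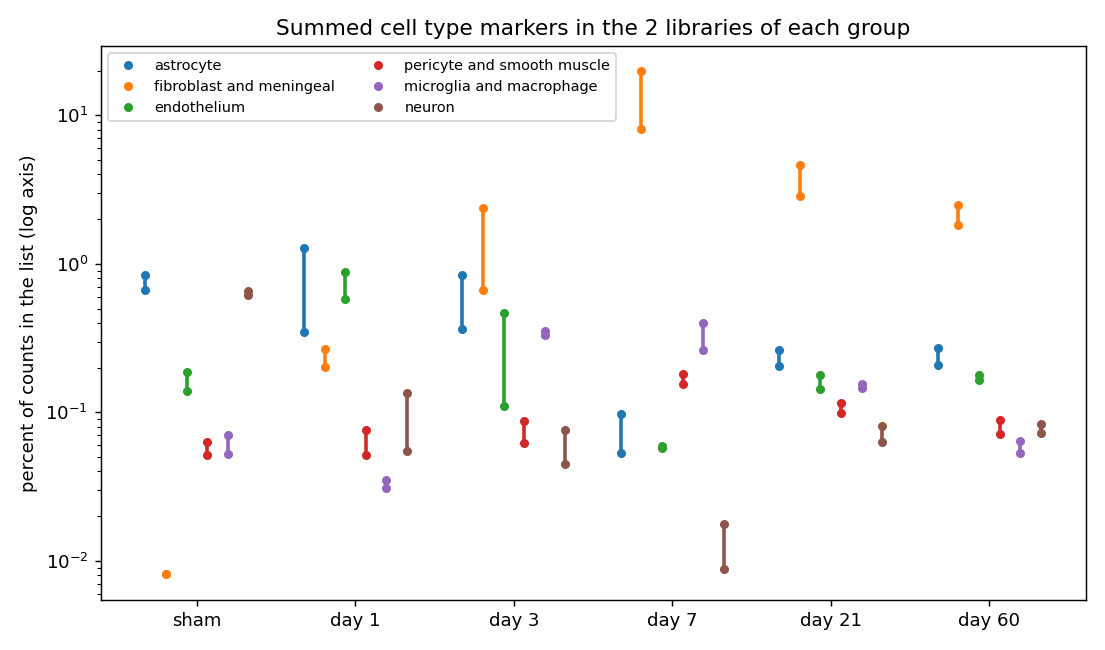
Summed share of counts, in percent on a log axis, held by lists of cell type markers at sham and at each time after stroke. Points joined by a bar are the 2 libraries of a group. The lists for oligodendrocytes and ependyma are not drawn. The fibroblast and meningeal list reached 8.15% to 19.8% on day 7, where the astrocyte list was lowest at 0.0531% to 0.0968%.

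Of the 6 genes, 4 were higher than in sham at day 1, 2 on day 3, 4 on day 7, 3 on day 21 and 3 on day 60, and none was lower at any time (edgeR quasi-likelihood test, adjusted p under 0.05). Over all genes tested, 16.7% were higher and 13.9% lower on day 1, 18% and 14.2% on day 3, 23.2% and 19.8% on day 7, 17.8% and 15.4% on day 21, and 16.8% and 14.8% on day 60. The median log2 fold change of the 6 genes was 2.32, 1.36, 1.79, 1.35 and 1.53 over sham at days 1, 3, 7, 21 and 60, while that of all genes lay between 0.01 and 0.16. The 6 genes and the lists described further on were chosen with earlier results of these data known. Setting their counts and medians beside those of all genes is therefore only a description. Gjb2 was the member called higher at all 5 times, as were 8.09% of genes. The 5 comparisons share the sham libraries and are not independent. These counts leave out the replicate number. With that number as a block, 5, 5, 5, 5 and 4 of the 6 genes were called at days 1, 3, 7, 21 and 60. Over all genes the block called 6754, 6861, 8459, 7227 and 6834, in either direction. The mean of the 2 libraries was highest on day 1 for Gja1, Gja4 and Gjc1, on day 7 for Gjb2 and Panx1, and on day 60 for Gjb6. For Gja1, Gjb2, Gja4 and Gjc1 the libraries of that time overlapped those of the time with the next highest mean.

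**Figure D2:**
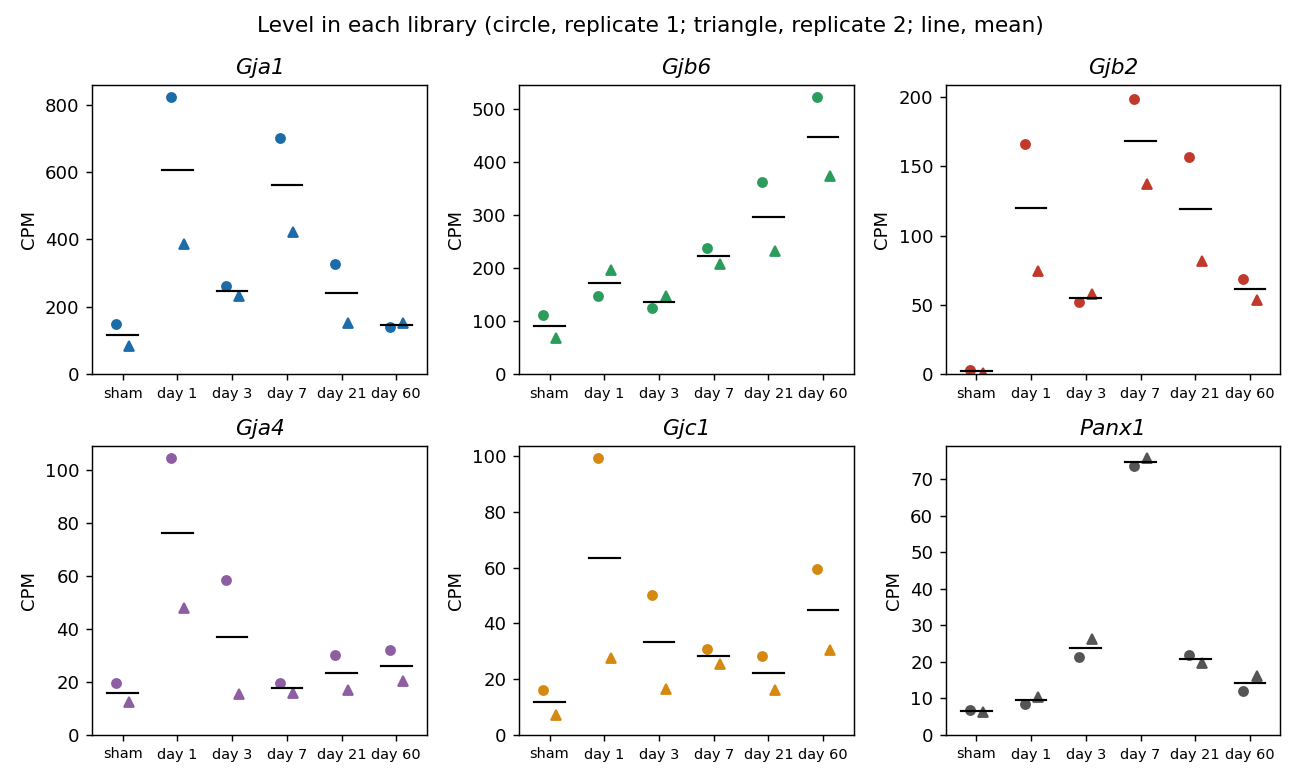
Level in CPM of each of the 6 genes in each library at sham and days 1, 3, 7, 21 and 60, with circles for replicate 1, triangles for replicate 2 and a line at the mean. Gjb2 was at or above 52.3 CPM in all 10 stroke libraries and at 3.17 and 1.05 CPM in sham, Gjb6 was highest at day 60 and Panx1 on day 7.

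Gja1, which encodes the most abundant gap junction protein of astrocytes, was higher than in sham at days 1 and 7 and near its sham level at day 60. Its level was 149 and 84.5 CPM in sham, 822 and 387 CPM on day 1, 262 and 232 CPM on day 3, 702 and 422 CPM on day 7, 328 and 152 CPM on day 21, and 139 and 150.5 CPM on day 60. The stroke libraries of days 1 to 21 all lay above both sham libraries, and those of day 60 overlapped them. In order of the mean, day 1 and day 7 overlapped each other, as did day 3 and day 21, and day 60 and sham. The log2 fold change over sham was 2.37 ± 0.53 (SE) at day 1 (adjusted p = 0.00924) and 2.27 ± 0.53 on day 7 (adjusted p = 0.00629). It was 1.08 ± 0.51 on day 3 (adjusted p = 0.131), 1.04 ± 0.51 on day 21 (adjusted p = 0.141) and 0.31 ± 0.50 on day 60 (adjusted p = 0.669). With the replicate number as a block, Gja1 was also called higher on day 3 (adjusted p = 0.0187) and day 21 (adjusted p = 0.0310). The adjusted p at day 1 ranged between 0.00704 and 0.0711 when single libraries were left out, and the call ended without sham replicate 2 (0.0698) or day 1 replicate 1 (0.0711). At day 7 it ranged between 0.00569 and 0.0554, the highest without sham replicate 2. The high levels at day 7 were found in the libraries in which the summed astrocyte markers were lowest: Gja1 counts were 54.6% to 65.8% of the astrocyte marker counts there and 1.17% to 1.79% in sham.

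Gjb6, the other main astrocyte connexin, had a late profile and was highest at day 60. It had 112 and 67.5 CPM in sham, 147 and 196 CPM on day 1, 124 and 148 CPM on day 3, 239 and 208 CPM on day 7, 362 and 233 CPM on day 21, and 523 and 374 CPM on day 60. Every stroke library was above both sham libraries, and the day 60 libraries were above all others, although day 21 overlapped day 7 and day 1 overlapped day 3. The log2 fold change over sham was 1.31 ± 0.39 on day 7 (adjusted p = 0.0202), 1.73 ± 0.39 on day 21 (adjusted p = 0.00830) and 2.32 ± 0.40 on day 60 (adjusted p = 0.00250), the last being 4.99-fold. It was 0.93 ± 0.38 on day 1 (adjusted p = 0.0922) and 0.60 ± 0.38 on day 3 (adjusted p = 0.255), and the block brought day 1 past the threshold (adjusted p = 0.0340). The day 60 call held without each of the 12 libraries in turn, with an adjusted p of 0.0265 or less. The day 7 call ended without sham replicate 2 (0.137), day 7 replicate 1 (0.0894) or day 7 replicate 2 (0.0545), within a range from 0.0228 to 0.137. The day 21 call ended without sham replicate 2 (0.0662) or day 21 replicate 1 (0.0955), within a range from 0.0104 to 0.0955. Gjb6 counts were 16.2% to 21.3% of the astrocyte marker counts at day 60 and 22.4% to 27.0% on day 7, against 0.935% to 1.35% in sham. Of those 9 astrocyte markers, 3 were lower on day 60 than in sham, none was higher and 6 did not pass the test.

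The balance of the 2 astrocyte connexin genes thus differed along the time course, which is given as a description with no test. The count ratio of Gja1 to Gjb6 within a library needs no scaling between libraries. Its log2 value was 0.41 and 0.32 in sham, 2.49 and 0.98 on day 1, 1.08 and 0.64 on day 3, 1.56 and 1.02 on day 7, -0.14 and -0.62 on day 21, and -1.91 and -1.31 on day 60. All 6 libraries of days 1 to 7 were above both sham libraries, and all 4 libraries of days 21 and 60 were below them. The mean difference from sham was 1.37 on day 1, 0.50 on day 3, 0.92 on day 7, -0.74 on day 21 and -1.98 on day 60. Leaving out single libraries moved these, in the same order of times, within 0.62 to 2.12, 0.28 to 0.71, 0.65 to 1.19, -0.98 to -0.51 and -2.27 to -1.68. Day 1 replicate 1 and replicate 2 differed most, and the same 2 libraries differed in their share of astrocyte markers, 0.346% and 1.28%. Levels of different genes can be set side by side only per length, here CPM per kb of merged exons. The annotated exons of Gja1 sum to 10257 bases and those of Gjb6 to 2674. On that scale Gjb6 was above Gja1 both at day 60, at 168 ± 39.6 and 14.1 ± 0.758 CPM per kb, and in sham, at 33.6 ± 11.9 and 11.4 ± 4.44 CPM per kb (SD, n = 2 each). In day 1 replicate 1 the order was reversed, with Gja1 at 1.46 times Gjb6. The merged exons are those of 8 annotated transcripts for Gja1 and 4 for Gjb6, and which of these were expressed was not measured. The order of the 2 genes per kb and the shares of the summed CPM per kb depend on these lengths. Of the summed CPM per kb of the 6 genes, Gjb6 held a mean of 57.3% in sham, 30.2% on day 1 and 71.5% on day 60, and Gjb2 held 1.39% in sham, 29.4% on day 7 and 10.9% on day 60.

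**Figure D3:**
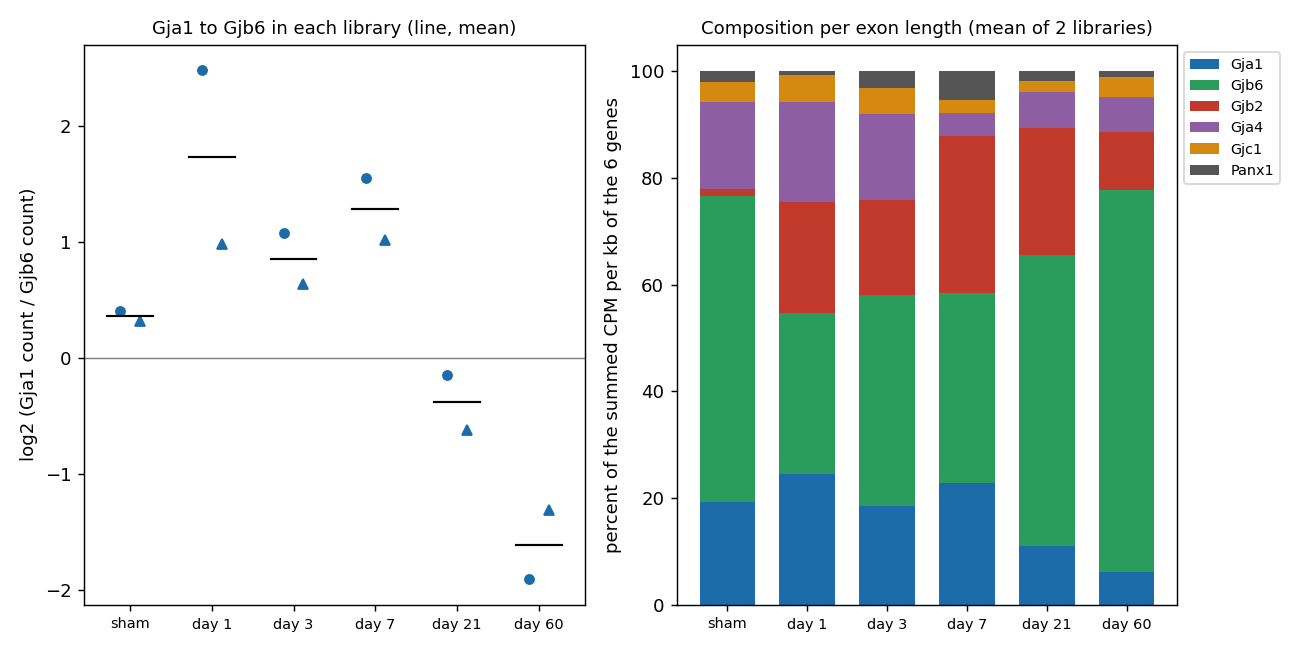
Left, log2 ratio of the Gja1 count to the Gjb6 count in each library (circles, replicate 1; triangles, replicate 2; line, mean), with a grey line at equal counts. Right, mean share of each gene, in percent, of the summed CPM per kb of the 6 genes; Gja1 exceeded Gjb6 in counts in every library up to day 7 and in none at days 21 and 60.

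Gjb2 had the largest change of the 6 genes, low in sham and higher at all times after stroke. Its level was 3.17 and 1.05 CPM in sham, 166 and 74.6 CPM on day 1, 52.3 and 58.2 CPM on day 3, 199 and 138 CPM on day 7, 157 and 82.0 CPM on day 21, and 68.6 and 53.7 CPM on day 60. These sham values rest on 53 and 109 counts. All 10 stroke libraries lay far above both sham libraries, while day 7 and day 1, day 1 and day 21, and day 60 and day 3 overlapped each other. The log2 fold change over sham was 5.88 ± 0.69 on day 1 (adjusted p = 0.000903), 4.75 ± 0.66 on day 3 (adjusted p = 0.000878), 6.36 ± 0.71 on day 7 (adjusted p = 0.000147), 5.87 ± 0.69 on day 21 (adjusted p = 0.000298) and 4.90 ± 0.66 on day 60 (adjusted p = 0.000669). As folds these were 58.7, 27.0, 82.2, 58.4 and 29.8. All 5 calls held without each of the 12 libraries in turn, the highest adjusted p being 0.0124, at day 1. Its counts were 1.19% to 3.95% of those of the fibroblast and meningeal markers in sham, 3.09% to 9.51% on day 1 and 0.0477% to 0.222% on day 7. Relative to the astrocyte markers they were 17.8% to 18.7% on day 7 and 0.0145% to 0.0379% in sham. The part of these markers in the level of Gjb2 was not tested.

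Gja4 and Gjc1, which encode connexins known from blood vessels, were higher than in sham at day 1. Gja4 had 19.5 and 12.4 CPM in sham, 105 and 47.9 CPM on day 1, 58.5 and 15.4 CPM on day 3, 19.6 and 16.0 CPM on day 7, 30.2 and 16.9 CPM on day 21, and 32.0 and 20.4 CPM on day 60. Only the libraries of days 1 and 60 all lay above both sham libraries, and those of days 3, 7 and 21 overlapped them. The log2 fold change of Gja4 over sham was 2.26 ± 0.64 on day 1 (adjusted p = 0.0247), and it lay between 0.16 and 1.21 at the other times (adjusted p between 0.164 and 0.858). The day 1 call of Gja4 ended without sham replicate 1 (0.0764), sham replicate 2 (0.139) or day 1 replicate 1 (0.171), within a range from 0.0114 to 0.171. At day 3 it passed the threshold with the replicate block (adjusted p = 0.0434) and without day 3 replicate 2 (adjusted p = 0.0417, lowest of a range up to 0.934).

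Gjc1 had 16.1 and 7.23 CPM in sham, 99.2 and 27.5 CPM on day 1, 50.2 and 16.4 CPM on day 3, 30.7 and 25.6 CPM on day 7, 28.4 and 16.0 CPM on day 21, and 59.5 and 30.4 CPM on day 60. The libraries of days 1, 3, 7 and 60 were above both sham libraries, but day 3 only just, and every group overlapped the next in order of the mean. The log2 fold change of Gjc1 over sham was 2.44 ± 0.74 on day 1 (adjusted p = 0.0316) and 1.95 ± 0.73 on day 60 (adjusted p = 0.0656), and it lay between 0.93 and 1.51 at days 3, 7 and 21 (adjusted p between 0.134 and 0.341). The day 1 call of Gjc1 ended without sham replicate 1 (0.0643), sham replicate 2 (0.170) or day 1 replicate 1 (0.294), within a range from 0.0148 to 0.294. With the replicate block Gjc1 was called higher at every time, with adjusted p of 0.00115 on day 1, 0.0104 on day 3, 0.00771 on day 7, 0.0475 on day 21 and 0.00213 on day 60. DESeq2 called it at day 60 too (adjusted p = 0.0272), as did the edgeR test without day 1 replicate 1 (0.04998) or day 1 replicate 2 (0.0483), within a range up to 0.288. Replicate 1 was above replicate 2 for both Gja4 and Gjc1 in all 6 groups. The endothelial markers differed in the same direction at days 1 and 3 and in the opposite one in the other 4 groups. At day 1 replicate 1 had 0.884% of its counts in endothelial markers and replicate 2 had 0.579%, and at day 3 the shares were 0.464% and 0.111%. Replicate 1 and replicate 2 had 0.138% and 0.187% in sham, 0.0573% and 0.0593% on day 7, 0.143% and 0.178% on day 21, and 0.164% and 0.179% on day 60. At day 7, where the endothelial share was below that in sham, Gja4 was at 16.0 to 19.6 CPM. The 10 pericyte and smooth muscle markers held 0.0518% to 0.0756% on day 1, 0.156% to 0.182% on day 7 and 0.0515% to 0.0628% in sham. Their share was higher in replicate 1 at days 1, 3, 7 and 21 and lower in sham and at day 60. At day 1, 40% of them were higher than in sham and 30% lower, beside 16.7% and 13.9% of all genes. The part of these markers was not tested.

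Panx1 was higher than in sham from day 3 on and highest at day 7. It had 6.93 and 6.23 CPM in sham, 8.56 and 10.3 CPM on day 1, 21.4 and 26.2 CPM on day 3, 73.5 and 75.6 CPM on day 7, 21.9 and 19.7 CPM on day 21, and 12.1 and 16.1 CPM on day 60. Its replicates lay close together, and all groups were separate from each other except day 3 and day 21. The log2 fold change over sham was 0.52 ± 0.31 on day 1 (adjusted p = 0.221), 1.86 ± 0.32 on day 3 (adjusted p = 0.00235), 3.50 ± 0.34 on day 7 (adjusted p = 7.6e-05), 1.66 ± 0.31 on day 21 (adjusted p = 0.00345) and 1.10 ± 0.31 on day 60 (adjusted p = 0.0231). At day 7 this was an 11.3-fold higher level. The calls at days 3, 7 and 21 held without each library in turn, with adjusted p of at most 0.0248, 0.00177 and 0.0382. The day 60 call ended without sham replicate 1 (0.0852), sham replicate 2 (0.117), day 21 replicate 1 (0.0621) or day 60 replicate 2 (0.111), within a range from 0.0339 to 0.117, and without both day 7 libraries (0.0508). The day 7 libraries, where Panx1 was highest, are those with 8.15% to 19.8% of counts in fibroblast and meningeal genes. The 10 microglial and macrophage markers held 0.261% to 0.398% of counts at day 7 and 0.334% to 0.351% on day 3, against 0.0521% to 0.0702% in sham.

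**Figure D4:**
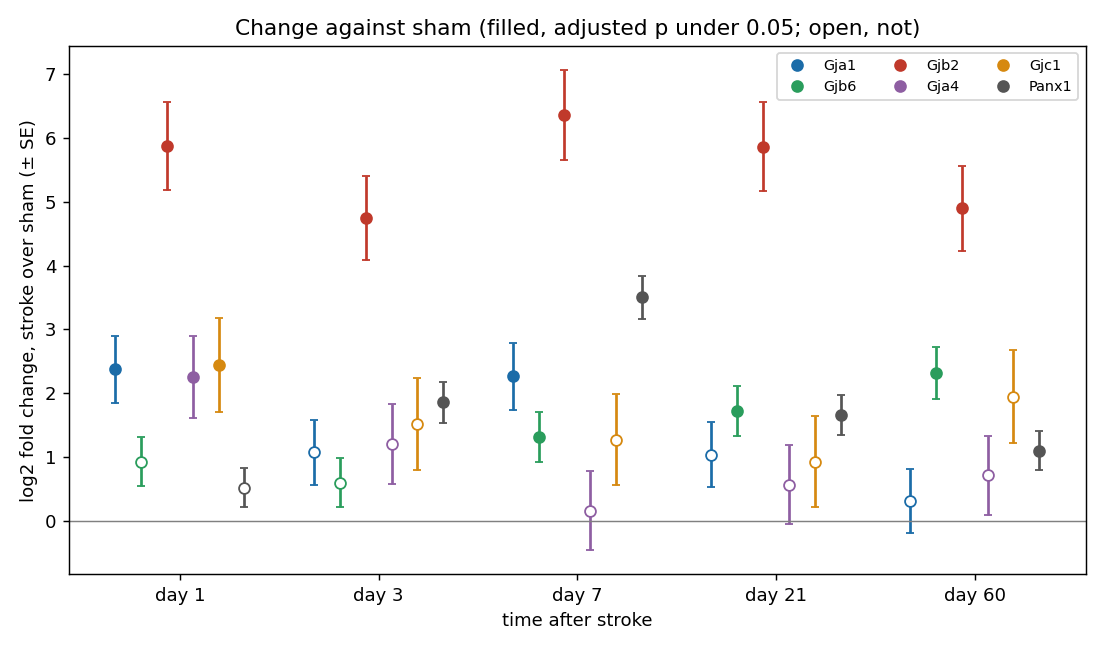
Log2 fold change of each gene at each time after stroke over sham, with bars of 1 SE; filled points passed an adjusted p of 0.05 and open points did not. Gjb2 stood between 4.75 and 6.36 at all 5 times, Panx1 peaked at 3.50 on day 7 and Gjb6 reached 2.32 on day 60.

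From one time to the next, Panx1 alone among the 6 genes passed the test, and the test of the difference was made for all 6 at each step. Panx1 was higher on day 3 than at day 1 by 1.33 ± 0.31 log2 (adjusted p = 0.0458), higher on day 7 than at day 3 by 1.65 ± 0.31 (adjusted p = 0.0199) and lower on day 21 than at day 7, at -1.84 ± 0.31 (adjusted p = 0.0442). Over all genes, 3.57% were called in either direction at the first of these steps, 6.29% at the second and 0.441% at the third. Each of these 3 calls ended when some single library was left out. The first ended without any of 10 of the 12 libraries, sham, day 7 and day 21 libraries included, and without both day 7 libraries (0.114); it held without day 60 replicate 1 or replicate 2, within a range from 0.0455 to 0.214. The second ended without day 3 replicate 1 (0.0904), day 3 replicate 2 (0.0503), day 7 replicate 1 (0.108) or day 7 replicate 2 (0.125), within a range from 0.0179 to 0.125. The third ended without sham replicate 1 (0.0804), sham replicate 2 (0.0749), day 7 replicate 1 (0.221), day 7 replicate 2 (0.285), day 21 replicate 1 (0.322), day 21 replicate 2 (0.314) or day 60 replicate 1 (0.0600), within a range from 0.0361 to 0.322. Gja1 on day 7 over day 3 was 1.19 ± 0.51 (adjusted p = 0.185, and 0.0426 with the block), and Gjb2 was 1.61 ± 0.57 (adjusted p = 0.118, 0.0197 with the block and 0.0379 with DESeq2). Between day 60 and day 21 no gene of the whole table was called by edgeR (0%), although DESeq2 called 114 and the block 21. An unadjusted p under 0.05 in edgeR was found for 847 of 15635 genes, near the number that this threshold passes when no gene differs. At that step Gjb6 was at 0.59 ± 0.38 (adjusted p = 0.946) and Gja1 at -0.73 ± 0.51 (adjusted p = 0.946), so that the higher mean of Gjb6 and the lower mean of Gja1 on day 60 did not pass the test of that step.

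Of 17 other connexin and pannexin genes that were listed, 11 were in the table and tested. Of these 11, 4 were higher and 2 lower than in sham at day 1, 2 and 1 on day 3, 2 and 2 on day 7, 2 and 1 on day 21, and 1 and 0 on day 60. As shares of the list, 36.4% were higher and 18.2% lower on day 1, beside 16.7% and 13.9% of all genes. From day 3 on, 9.09% to 18.2% were higher and 0% to 18.2% lower, beside 16.8% to 23.2% and 14.2% to 19.8% of all genes. The shares after day 1 were thus near or below those of all genes. Their median log2 fold change at the 5 times was -0.72, -0.48, 0.41, -1.19 and -1.72, and with genes at 0 in a group set to the floor of 3 counts per library it was -0.55, -0.48, 0.41, -1.19 and -0.34.

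Gjb5 (Cx31.1), best known from skin epithelium, had no count in either sham library. Gjb5 had 10.9 and 4.98 CPM on day 1, 2.22 and 2.60 CPM on day 3, 1.61 and 1.41 CPM on day 7, 0.728 and 0.349 CPM on day 21, and 0.573 and 0.464 CPM on day 60, and it was called higher at all 5 times (adjusted p of 0.00275 or less), with no call lost without a single library. Against the floor of 3 counts per library in sham, it was at least 76.3-fold higher on day 1, 23.2-fold on day 3, 14.5-fold on day 7, 5.18-fold on day 21 and 4.98-fold on day 60. Gjb5 and Gja4 both had their highest mean at day 1, but Gja4 was already at 12.4 to 19.5 CPM in sham.

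Gja5 (Cx40), another arterial connexin, had 21.2 and 4.39 CPM on day 1 and 1.49 and 0.866 CPM in sham (log2 fold change 3.45 ± 1.09, adjusted p = 0.0363). That call ended without sham replicate 1 (0.115), sham replicate 2 (0.172) or day 1 replicate 1 (0.305), and 165 of its exon bases are shared with Gpr89 on the other strand. Panx2, the pannexin of neurons, moved the other way from Panx1: it had 50.2 and 32.2 CPM in sham, 1.56 and 5.32 CPM on day 1, 3.80 and 3.30 CPM on day 3, 2.15 and 0.921 CPM on day 7, 9.24 and 6.84 CPM on day 21, and 20.7 and 4.42 CPM on day 60. It was lower than sham at day 1 (log2 fold change -3.56 ± 0.83, adjusted p = 0.0109), day 3 (-3.54 ± 0.83, 0.00997), day 7 (-4.79 ± 0.89, 0.00188) and day 21 (-2.36 ± 0.79, 0.0421), and also on day 60 with DESeq2 (0.0396) or without day 60 replicate 1 (0.0328). The day 7 call of Panx2 held without any single library. Those of days 1, 3 and 21 ended without sham replicate 1 (0.0510) or day 1 replicate 1 (0.0689) at day 1, day 3 replicate 1 (0.0543) or replicate 2 (0.0534) at day 3, and sham replicate 1 (0.163), sham replicate 2 (0.0699), day 21 replicate 1 (0.121) or day 21 replicate 2 (0.195) at day 21. The neuronal markers fell in the same libraries, with 9 of 10 lower on day 1 and 10 of 10 at each later time. Gjc3 (Cx29), a connexin of oligodendrocytes, had 22.2 and 12.6 CPM in sham, 0.667 and 3.78 CPM on day 1, and 3.16 and 1.16 CPM on day 7. Its log2 fold change was -2.93 ± 0.92 on day 1 and -3.03 ± 0.93 on day 7, both past the threshold (adjusted p of 0.0356 and 0.0238). These calls ended without sham replicate 1 (0.145), sham replicate 2 (0.0627) or day 1 replicate 1 (0.153) at day 1, and without sham replicate 1 (0.106) or day 7 replicate 2 (0.147) at day 7, and the block added day 21 (0.0387). DESeq2 called Gjc3 lower also on day 3 (adjusted p = 0.00954), day 21 (0.00768) and day 60 (0.0160), as did edgeR at these 3 times without either day 1 library (at most 0.0366). The 10 oligodendrocyte markers held 0.138% to 0.220% of counts at day 1 and 0.0456% to 0.101% on day 7, against 0.929% to 1.08% in sham. Gjb1 (Cx32), also of oligodendrocytes, and Gjd3 were between 0 and 2.45 CPM in all libraries and were called at no time by edgeR, although DESeq2 called Gjd3 lower on day 60 (adjusted p = 0.0234), and Gja3 and Gja6 averaged under 1 CPM in every group.

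**Figure D5:**
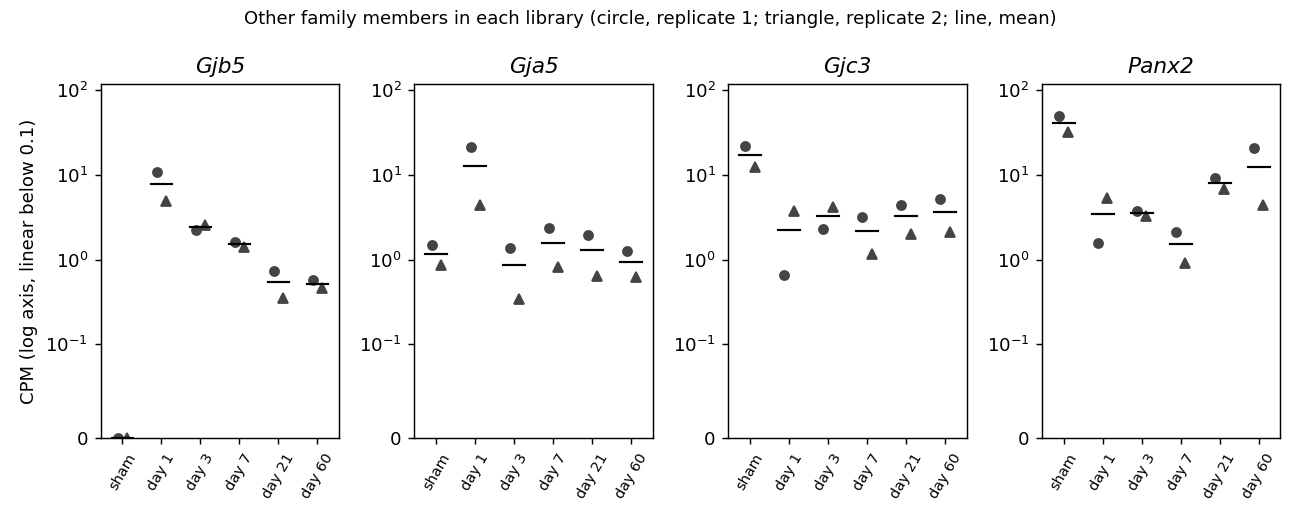
Level in CPM (log axis, linear below 0.1) of 4 other connexin and pannexin genes in each library, with circles for replicate 1, triangles for replicate 2 and a line at the mean. Gjb5 was at 0 in both sham libraries, and Gjb5 and Gja5 had their highest means at day 1, while Gjc3 and Panx2 were highest in sham.

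Genes whose products bind, move or degrade connexins were called in both directions, as genes of the whole table were. Of 31 such genes tested, 7 were higher and 5 lower than in sham at day 1, 4 and 8 on day 3, 9 and 7 on day 7, 5 and 5 on day 21, and 7 and 9 on day 60, with a median log2 fold change between -0.39 and 0.21. As shares of the list, 12.9% to 29.0% were higher and 16.1% to 29.0% lower over the 5 times, against 16.7% to 23.2% and 13.9% to 19.8% of all genes. The genes named next were picked for being called at most times. Tubb6, a beta tubulin, averaged 4.36 CPM in sham, 1057 CPM on day 1, 371 CPM on day 3, 146 CPM on day 7, 80.2 CPM on day 21 and 53.9 CPM on day 60, and was higher at all 5 times (adjusted p of 0.000958 or less). Vcl, vinculin, was also higher at all 5 times, at 82.4 to 182 CPM on average against 28.7 CPM in sham. Prkce, the epsilon isoform of protein kinase C, averaged 9.15 to 22.3 CPM after stroke against 86.0 CPM in sham, and Ubqln4, an ubiquilin, averaged 44.4 to 63.3 CPM against 237 CPM in sham, and both were lower at all 5 times. Leaving out single libraries ended 3 of the 5 calls of Vcl, those libraries being sham replicate 1, day 1 replicate 1, day 3 replicate 1 and day 60 replicate 2 (adjusted p up to 0.159), and none of those of Tubb6, Prkce and Ubqln4.

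Genes of cadherin and tight junctions, which hold the membranes of coupled cells together, were likewise called in both directions. Of 31 tested, 7 were higher and 2 lower than in sham at day 1, 5 and 5 on day 3, 10 and 6 on day 7, 7 and 6 on day 21, and 7 and 8 on day 60, with a median log2 fold change between 0.22 and 0.66. As shares of the list, 16.1% to 32.3% were higher and 6.45% to 25.8% lower over the 5 times, set beside the same shares of all genes. Pvrl2, a nectin, averaged 46.6 to 76.1 CPM after stroke against 7.11 CPM in sham, and Jam3, a junctional adhesion molecule, averaged 44.2 to 80.8 CPM against 14.9 CPM in sham. Ctnnd2, a catenin of neurons, averaged 36.9 to 80.2 CPM against 434 CPM in sham, and Pkp4, a plakophilin, 11.1 to 34.8 CPM against 99.1 CPM in sham. All 4 were called at all 5 times, and they were named for being called at most times. Leaving out single libraries ended no call of Pvrl2, 2 calls of Jam3 (adjusted p up to 0.138; sham replicate 1, sham replicate 2, day 1 replicate 1 and day 3 replicate 2), 3 of Ctnnd2 (up to 0.0998; sham replicate 2, day 3 replicate 1, and either library of days 21 and 60) and 2 of Pkp4 (up to 0.103; sham replicate 1, sham replicate 2, day 1 replicate 1 and day 60 replicate 2).

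Genes that receive or clear the ATP that pannexin channels release, together with inflammasome genes, were more often higher than lower. Of 31 tested, 10 were higher and 2 lower than in sham at day 1, 17 and 1 on day 3, 15 and 2 on day 7, 13 and 2 on day 21, and 12 and 4 on day 60. As shares of the list, 32.3% to 54.8% were higher and 3.23% to 12.9% lower over the 5 times, set beside 16.7% to 23.2% and 13.9% to 19.8% of all genes. The median log2 fold change was 1.23, 2.10, 1.71, 1.55 and 0.87, and with the gene at 0 in a group set to the floor it was 1.62 on day 7 and 0.84 on day 60. P2rx4, an ATP-gated ion channel, averaged 7.82 CPM in sham, 36.0 CPM on day 1, 78.1 CPM on day 3, 140.4 CPM on day 7, 161 CPM on day 21 and 133 CPM on day 60. P2ry14, a receptor for UDP-sugars, averaged 21.1 to 133 CPM after stroke against 4.76 CPM in sham. Nt5e, the ectonucleotidase CD73 that forms adenosine, averaged 10.2 to 27.7 CPM against 0.867 CPM in sham, and Il1b, which encodes interleukin-1 beta, averaged 24.5 to 215 CPM against 4.62 CPM in sham. All 4 were called higher at all 5 times, as were 8.09% of all genes. They were named for being called at most times, so these calls add nothing to the counts of the list. Leaving out single libraries ended no call of P2rx4 or Nt5e, 1 of P2ry14 (without sham replicate 1, adjusted p 0.0589) and 2 of Il1b (sham replicate 1, day 7 replicate 1 and day 60 replicate 2, up to 0.133). Il1b, the P2ry receptors and P2rx4 are also made by microglia and macrophages, of whose 10 markers 2 were lower than in sham at day 1, while 6 were higher on day 3, 8 on day 7, 2 on day 21 and 2 on day 60, when another 2 were lower; their part in the result was not tested.

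Likeness of profile was measured as the root mean square difference in log2 CPM over the 12 libraries after centring each gene, among 11431 genes that reached 10 CPM in a group, and is a description with no test. The 3 genes most like Gja1 were Bhlhe40 (0.36), Wwtr1 (0.39) and Pde12 (0.40), and those most like Gjb6 were Osgin2 (0.27), Ppap2b (0.32) and Laptm4b (0.33). Gjb2, whose own spread was larger, was nearest to Fstl1 (0.54), S1pr2 (0.54) and Mpzl2 (0.61). Gja4 was nearest to Efna1 (0.29), Slc30a1 (0.31) and Gch1 (0.32), Gjc1 to G0s2 (0.30), H3f3b (0.34) and Rell1 (0.36), and Panx1 to Gpr137b (0.24), Entpd7 (0.35) and Man1c1 (0.39). Among the 6 genes themselves the closest pair was Gja4 and Gjc1 (0.53) and the most distant Gjb2 and Gja4 (2.03). Gja1 and Gjb6, the 2 astrocyte connexins, were 1.17 apart, farther than Gja1 was from Gjc1 (0.86), Gja4 (0.88) or Panx1 (1.07). Such distances include differences between the replicates of a group as well as those between times.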

How the data were processed

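RNA sequencing of 12 libraries of sorted cortical astrocytes was analysed, 2 in each of 6 groups. The authors deposited raw counts per gene symbol, made with Bowtie2 2.3.4.2 and HTSeq 0.6.1 on mm10, per the submitters' processing notes. The annotation, the strand setting and the treatment of multiply mapped reads are not given in the sources used here. The table of the whole series was identical to the sample files in 189288 of 189288 values. Of 15774 genes, 2 had no count in any library. Totals ran from 13006008 to 156128922 counts, and 3 counts per library, used as the floor for a gene at 0, are 0.0968 to 0.115 CPM as a group mean.

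Counts were tested in R 4.3.3 with edgeR 4.0.16: filterByExpr with a minimum count of 10 (15635 genes), TMM scaling (0.689 to 1.22), 1 quasi-likelihood fit of all libraries with a coefficient per group (6 residual and 4.15 prior degrees of freedom, median biological coefficient of variation 0.408), and Benjamini-Hochberg adjustment over all genes within a comparison at 0.05. Every adjusted p printed is from this test unless another is named. SEs were derived from the log2 fold change and its F statistic. CPM divides a count by the TMM-scaled total, and CPM per kb divides it by the merged exon length of the gene in GENCODE vM21. Shares of marker counts use plain totals.

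The difference between replicate 2 and replicate 1 was shared in part by the groups. Its correlation, taken across genes, was 0.319 to 0.713 for each of the 15 pairings of groups, over the set limit of 0.1. No label says what the replicate numbers mark. Replicate 2 was also the deeper library in every group, so that depth and a pairing of samples cannot be told apart. The fit reported leaves out the replicate number. Alternatives were that number as a block, DESeq2 1.42.0, its size factors in edgeR, no filter on low counts, and leaving out each library. Leaving out both day 7 libraries was added after seeing the data, as were the shares of each channel gene relative to marker counts.

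Named are the 6 genes in every comparison, the other connexin and pannexin genes with a mean of at least 1 CPM in some group, up to 4 genes of each list (called at most times, then largest mean change) and the 3 genes most alike in profile to each of the 6. Some genes that this rule names are not reported here. Col1a1 was chosen after its values were seen. The 6 genes and all lists were chosen with earlier results of these data known.

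Promoter sequences are from RefSeq, matched by symbol for 5 of the 6 genes.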

Additional observations from a re-analysis of the deposited data

Results flagged for a closer look

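For Panx1 the change between neighbouring times itself passed the test in the fit of all 12 libraries, so that in this fit its difference from sham was not the same at those times. The log2 difference was 1.33 on day 3 over day 1, 1.65 on day 7 over day 3 and -1.84 on day 21 over day 7, with adjusted p of 0.0458, 0.0199 and 0.0442 (edgeR quasi-likelihood test). These steps are listed because their calls passed, so the listing adds no support to them. As given above, each of the 3 calls ended when some single library was left out.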

How the results depend on the processing

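No result changed sign past the threshold under any alternative. DESeq2 size factors and the absence of a filter on low counts changed the call in none of the 54 results of the 6 genes (9 comparisons each), although size factors moved the median log2 fold change of all genes over sham by -0.09 to -0.14. The replicate block ended no call and added 10, so that it called 5 of the 6 genes at day 3, 5 on day 21 and 3 on day 7 over day 3, where DESeq2 called 2. Over all genes, DESeq2 called 1425 and the block 1313 on day 3 over day 1 (558 in the fit reported), 2626 and 2853 on day 7 over day 3 (983), 1044 and 635 on day 21 over day 7 (69), and 114 and 21 on day 60 over day 21 (0); the cause was not tested. Without both day 7 libraries, 370 genes and 0 of the 6 were called at day 3 over day 1, and 2 of the 6 on day 60 over sham.

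When each library was left out in turn, between 1954 and 5037 genes were called at day 1 over sham (4774 with all libraries), 2941 and 5315 on day 3 (5028), 4476 and 6949 on day 7 (6719), 2628 and 5593 on day 21 (5190) and 2654 and 5317 on day 60 (4929). The ranges were 239 to 557 on day 3 over day 1, 0 to 1412 on day 7 over day 3, 2 to 228 on day 21 over day 7 and 0 to 2 on day 60 over day 21. Of the 6 genes, 1 to 4 were called at day 1, 2 to 3 on day 3, 2 to 4 on day 7, 2 to 3 on day 21 and 2 to 4 on day 60, and 0 to 1 at each of the first 3 steps between times. A group left with 1 library was assumed to vary like the others. For all named genes, leaving out a library ended a call in 92 and added one in 25 of 3069 results, while DESeq2 added 22 in 257 and the block 23 in 261. The log2 ratio of Gja1 to Gjb6 over sham moved by less than its spread with a pseudocount of 5 at all 5 times, and its paired mean is the same by construction. Depth limits the values of genes near the floor, such as Gjb5 after day 7.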
